A study of Mus musculus with 12 samples.

Results

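Vegfa, Vegfb, Pdgfa, Pdgfb, Pdgfc, Tgfb1, Igf1, Hbegf, Thbs1 and Fn1 are secreted growth factors and matrix proteins through which macrophages can act on tumor cells and vessels. They were chosen by name, as the 10 rows of the count table that carry these symbols, out of 24728 genes. RNA was sequenced from 12 libraries of mouse bone-marrow derived macrophages, sorted as dTomato+ cells after ex vivo assays. The assays used dissociated brain tumor, in a series about macrophages that recycle myelin in brain cancer. The 4 groups of 3 libraries were Full Tumor, Tumor without Myelin, Myelin Alone and Control. The group labels Myelin Alone and Control name no tumor material. Within a group, the libraries carry the mn numbers 957, 958 and 016. What mn means is not in the labels, nor is what the Control macrophages received, how long the exposure lasted or which tumor model was used. The series describes a pair of mouse glioma models, both driven by enforced expression of PDGF-B in Nestin-positive progenitors, with loss of Ink4a/Arf or knockdown of p53. No label ties the libraries of a group to separate animals, and the p-values below therefore reflect the spread among libraries, which may be technical in origin.

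VEGF-A and VEGF-B bind receptor tyrosine kinases of endothelial cells, and VEGF-A, induced by hypoxia, is the main driver of new vessels in glioma. The PDGF chains act on progenitors, pericytes and fibroblasts, IGF-1 and HB-EGF support growth and survival through the IGF-1 and EGF receptors, and TGF-beta 1 is secreted in a latent form that must be activated outside the cell. Thrombospondin 1, the product of Thbs1, is a matrix glycoprotein that restrains angiogenesis through CD36 and CD47 and can activate latent TGF-beta, while fibronectin, the product of Fn1, is a scaffold that integrins bind.

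The libraries held 17071673 to 21689624 counts, and all 10 genes were among the 13414 that passed the low-count filter. Macrophage markers summed to 15609 to 18460 CPM (counts scaled to a common library total) in Full Tumor, 17373 to 19179 CPM in Tumor without Myelin, 14020 to 16297 CPM in Myelin Alone and 13995 to 16173 CPM in Control, with 10 of 10 markers measured. The Tumor without Myelin libraries lay wholly above those of Control. Markers of tumor cells and oligodendrocyte progenitors summed to 8.88 to 13.1 CPM in Full Tumor, 6.11 to 15.5 in Tumor without Myelin, 8.85 to 25.3 in Myelin Alone and 7.56 to 17.7 in Control. Of those 10 markers, 8 averaged under 1 CPM, Olig1, Olig2, Sox2 and Sox10 among them. The 4 libraries of number 016 stood apart from those of 957 and 958 for several of the genes, as given below.

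Apart from Thbs1, the genes with an unadjusted p under 0.05 in any comparison, once the mn number was in the fit, were Vegfa, Vegfb and Pdgfc. The 250 bases upstream of their start sites are shown to compare what lies before the start of each, from RefSeq on GRCm38.p6, 5′ to 3′ on the strand of the gene. They lie at chr17:46032378-46032627 (minus strand) for Vegfa, chr19:6987652-6987901 (minus strand) for Vegfb and chr3:81036166-81036415 (plus strand) for Pdgfc. Capitals mark the hypoxia response core ACGTG or GCGTG and the GC box GGGCGG, each searched on both strands.
Vegfa: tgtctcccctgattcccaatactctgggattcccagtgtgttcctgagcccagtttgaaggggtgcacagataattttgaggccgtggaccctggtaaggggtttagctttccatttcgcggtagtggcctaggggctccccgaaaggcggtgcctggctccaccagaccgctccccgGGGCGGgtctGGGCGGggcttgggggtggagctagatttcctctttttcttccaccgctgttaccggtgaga
Vegfb: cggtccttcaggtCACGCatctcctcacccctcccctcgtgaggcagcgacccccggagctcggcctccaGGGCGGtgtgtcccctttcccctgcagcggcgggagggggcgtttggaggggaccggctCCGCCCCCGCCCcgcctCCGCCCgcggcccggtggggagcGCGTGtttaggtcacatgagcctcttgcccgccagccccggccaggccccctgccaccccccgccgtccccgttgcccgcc
Pdgfc: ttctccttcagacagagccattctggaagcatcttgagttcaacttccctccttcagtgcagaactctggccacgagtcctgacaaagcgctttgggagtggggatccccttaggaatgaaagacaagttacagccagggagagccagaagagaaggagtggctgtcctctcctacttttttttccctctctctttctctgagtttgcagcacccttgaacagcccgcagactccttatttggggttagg
The Vegfb window held 2 hypoxia cores and 4 GC boxes, 2 of them adjoining. The Vegfa window held 2 GC boxes and 0 hypoxia cores, and the Pdgfc window held 0 of either motif. Vegfa had 2 windows, of which the nearer to the annotated gene start is shown. Bases beyond the 250 were not searched, so an absent match says nothing about sequence farther upstream. Over 32851 start-site windows of the same length, 38.6% held a hypoxia core and 32.7% a GC box, so each motif is common and a match is a description only.

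Thbs1 (ENSMUSG00000040152, chromosome 2, 118111876 to 118127133, plus strand, mm10) was the gene whose level varied most with the group. In Full Tumor it stood at 29.1 CPM in library 957, 26.5 in 958 and 12.1 in 016. In Tumor without Myelin it stood at 20.8, 14.3 and 10.9 CPM in the same order of numbers. In Myelin Alone it stood at 3.95, 3.53 and 5.55 CPM, and in Control at 9.38, 7.19 and 17.2 CPM. The Myelin Alone libraries were the lowest 3 of the 12, Control 016 was the highest of its group, and Full Tumor 016 the lowest of its own.

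The pooled tumor effect sets the mean of Full Tumor and Tumor without Myelin against the mean of Myelin Alone and Control. Thbs1 averaged 22.5 ± 9.18 CPM in Full Tumor and 15.3 ± 5.02 CPM in Tumor without Myelin, against 4.34 ± 1.06 CPM in Myelin Alone and 11.2 ± 5.24 CPM in Control (SD, n = 3 each). The pooled log2 fold change was 1.41 ± 0.30 (standard error; 95% interval 0.76 to 2.06), or 2.65-fold, and the edgeR quasi-likelihood test gave an adjusted p of 0.133 with group only. The same-numbered libraries deviate together across genes, and with the mn number as a block the value was 1.41 ± 0.30 with an edgeR adjusted p of 0.0335. The edgeR unadjusted p of Thbs1 was 0.000540 with the block and 0.000499 with group only. The lower adjusted p therefore came from the adjustment over all genes, not from a smaller p of Thbs1. The block fit called 1 of 10 genes, Thbs1, where 2.25% of all 13414 tested genes were called in either direction and 1.63% were called higher. With group only it called 0 of 10, where 0.0745% of all genes were called, and 1 of 10 had an unadjusted p under 0.05, as did 5.78% of all genes.

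Taken number by number, the pooled log2 difference of Thbs1 was 1.99 in 957, 1.93 in 958 and 0.23 in 016. It was positive in 3 of 3 numbers, a property of 31.1% of tested genes in either direction, but the tumor libraries and the others overlapped through Control 016. Leaving out the 4 libraries of 016 gave a pooled log2 fold change of 1.99 with the block (edgeR adjusted p = 0.000300). Leaving out 957 or 958 gave 1.08 or 1.12, and neither passed (edgeR adjusted p = 0.295 and 0.365). Leaving out any single library of 957 or 958 also lost the call, at edgeR adjusted p between 0.0798 and 0.122, with log2 fold changes of 1.25 to 1.39. In bulk libraries, fewer cells of a type and less RNA per cell cannot be told apart.

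**Figure D1:**
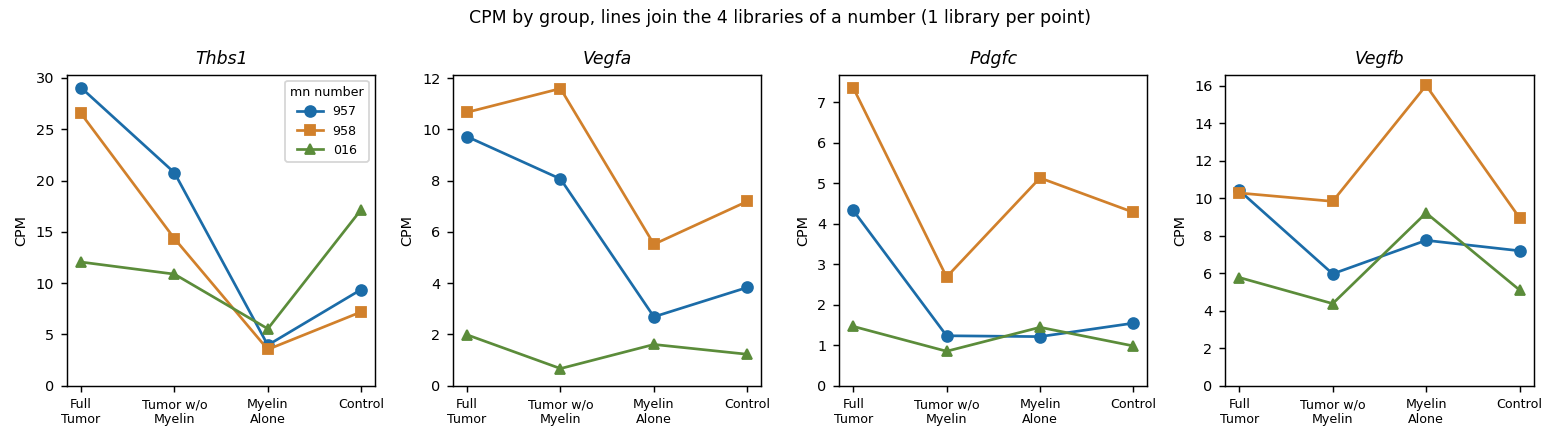
CPM (vertical axis) of Thbs1, Vegfa, Pdgfc and Vegfb in the 4 groups (horizontal axis), 1 library per point, with lines that join the 4 libraries of each mn number. Thbs1 is lowest in Myelin Alone for all 3 numbers, while Vegfa lies lowest in the 016 libraries within every group.

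The separate comparisons of Thbs1 share libraries with the pooled one. Full Tumor against Control gave a log2 fold change of 1.01 ± 0.41 with the block (edgeR adjusted p = 0.431), with differences of 1.62 and 1.87 in 957 and 958 and −0.51 in 016. Tumor without Myelin against Control gave 0.44 ± 0.41 (edgeR adjusted p = 0.824), again with 016 on the other side at −0.65. Full Tumor against Tumor without Myelin gave 0.57 (95% interval −0.29 to 1.43) and was positive in 3 of 3 numbers. None of these 3 comparisons passed the threshold with all libraries. Without the libraries of 016, Full Tumor against Control was 1.76 with the block and passed (edgeR adjusted p = 0.00865). Without 957 it was 0.67 (edgeR adjusted p = 0.771) and without 958 it was 0.54 (edgeR adjusted p = 0.936). Leaving out Control 016 alone gave 1.53 (edgeR adjusted p = 0.117).

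Thbs1 was lower in Myelin Alone than in Control in every number, but did not pass the test. Myelin Alone against Control gave −1.37 ± 0.42 with the block (95% interval −2.28 to −0.46), an unadjusted p of 0.00671 and an edgeR adjusted p of 0.601. The difference was −1.22, −1.004 and −1.61 in 957, 958 and 016, and all 3 Myelin Alone libraries lay below all 3 Control libraries. Without Control 016 the log2 fold change was −0.75 (edgeR adjusted p = 0.769). Thbs1 was the 1 gene of the 10 that did not overlap in this comparison, where 5.78% of tested genes did not overlap in either direction and 2.57% lay lower.

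Full Tumor is taken to hold myelin because it is labelled apart from Tumor without Myelin, though its own label names none. Full Tumor against Myelin Alone gave the widest Thbs1 difference. It was 2.38 ± 0.43 on the log2 scale with the block, or 5.19-fold, with an edgeR adjusted p of 0.0723. With group only it was 2.37 ± 0.43 (edgeR adjusted p = 0.810). The edgeR unadjusted p changed little, at 0.000140 with the block and 0.000153 with group only. By number the difference was 2.84, 2.87 and 1.10, and the groups did not overlap. Without the libraries of 016 it was 2.90 and passed (edgeR adjusted p = 0.000761), and without 957 or 958 it was 2.10 or 2.06 and did not (edgeR adjusted p = 0.434 and 0.841). Thbs1 and Hbegf were the 2 of 10 genes that lay wholly higher in Full Tumor, where 6.75% of tested genes did not overlap in either direction and 3.63% lay higher. In this comparison the block fit called 0 of 10 genes, where 0.112% of all genes were called. The order of Thbs1 levels was therefore Full Tumor, Tumor without Myelin, Control and Myelin Alone, in which only the last neighbours did not overlap.

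The Thbs1 point values for myelin had opposite signs with and without tumor in all 3 numbers, but neither difference, nor the contrast between them, passed the test, and the interval of Full Tumor against Tumor without Myelin includes 0. The interaction, which takes Full Tumor minus Tumor without Myelin and subtracts Myelin Alone minus Control, was 1.93 ± 0.59 on the log2 scale with group only. Its unadjusted p was 0.00679 and its edgeR adjusted p 1.00, and 0 of all tested genes were called for the interaction in either fit. By number the interaction was 1.71, 1.89 and 1.76, so it included 016. A single direction in 3 of 3 numbers held for 21.7% of tested genes, and for Thbs1 it follows from the opposite signs given above.

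Markers of other cells that can carry Thbs1 were measured beside it. Platelet and megakaryocyte markers summed to 75.0 to 141 CPM in Full Tumor, 61.4 to 133 CPM in Tumor without Myelin, 25.2 to 85.6 CPM in Myelin Alone and 25.6 to 63.4 CPM in Control. Nearly all of this was Pf4, platelet factor 4, which macrophages also make and which in the pooled tumor effect of the block fit rose by 1.15 ± 0.13 (edgeR adjusted p = 0.00109). The other platelet markers summed to 2.51 to 9.49 CPM in Full Tumor, 2.21 to 5.19 in Tumor without Myelin, 1.77 to 3.32 in Myelin Alone and 2.50 to 6.26 in Control, and Ppbp, Itga2b, Gp9, Gp1ba, Gp5 and Clec1b each averaged under 1 CPM. Pericyte and fibroblast markers summed to 5.65 to 24.4 CPM in Full Tumor, 1.31 to 21.9 in Tumor without Myelin, 0.827 to 17.1 in Myelin Alone and 3.07 to 31.2 in Control, with Pdgfrb, Col3a1, Lum and Des under 1 CPM. Microglia markers summed to 733 to 963 CPM in Full Tumor and 827 to 1123 in Tumor without Myelin, against 650 to 683 in Myelin Alone and 403 to 654 in Control. In the pooled tumor effect with the block 4 of 7 tested microglia markers and 4 of 10 macrophage markers were called higher, with 0 lower. Over all tested genes, this fit called 1.63% higher and 0.626% lower. Endothelial markers summed to 60.2 to 65.0 CPM in Full Tumor and 47.8 to 51.7 in Tumor without Myelin, against 65.8 to 80.6 in Myelin Alone and 58.4 to 72.0 in Control, and 1 of 5, Vwf, was called lower in the pooled tumor effect with the block, by a log2 fold change of −0.69. Neutrophil markers summed to 43.7 to 159 CPM in Full Tumor and 64.9 to 171 in Tumor without Myelin, against 68.9 to 149 in Myelin Alone and 76.4 to 286 in Control, and 1 of 8, Mpo, was called lower, at −3.22. Astrocyte markers summed to 36.9 to 107 CPM in Full Tumor and 76.1 to 123 in Tumor without Myelin. They summed to 83.4 to 121 CPM in Myelin Alone and 111 to 142 in Control. Of 3 tested astrocyte markers, 0 were called higher and 0 lower in the pooled tumor effect with the block. The part of all these markers in the Thbs1 result was not tested.

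The 2 tested protein-coding genes whose log2 CPM, centred within each mn number, followed Thbs1 most closely over the 12 libraries were Ddx58 (Pearson r = 0.923) and Trim25 (r = 0.921). Ddx58 encodes the RNA sensor RIG-I and Trim25 a ubiquitin ligase. They were picked as the closest among 11608 tested protein-coding genes. For the other members, the closest gene had an r between 0.884 (Tgfb1) and 0.949 (Pdgfc), so such an r is not particular to Thbs1. The points share the libraries and their depth. Ddx58 averaged 52.5 ± 25.4 CPM in Full Tumor and 51.9 ± 22.8 in Tumor without Myelin, against 20.0 ± 2.38 in Myelin Alone and 28.2 ± 9.89 in Control (SD, n = 3). Its pooled tumor effect was 1.03 ± 0.28 with the block and did not pass (edgeR adjusted p = 0.0955). Trim25 averaged 141 ± 33.7 CPM in Full Tumor, 129 ± 34.7 in Tumor without Myelin, 104 ± 7.81 in Myelin Alone and 123 ± 12.3 in Control (SD, n = 3). Its pooled tumor effect was 0.22 ± 0.09 with the block and did not pass (edgeR adjusted p = 0.335).

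The other 9 genes did not pass in any of the 8 comparisons, with or without the block. In Full Tumor against Control the block fit called 0 of 10, where 0.813% of all genes were called. In Tumor without Myelin against Control it called 0 of 10 (0.745% of all genes), and in Myelin Alone against Control 0 of 10 (0.0373%). In Full Tumor against Tumor without Myelin it called 0 of 10 (0% of all genes), in the pooled myelin effect 0 of 10 (0.112%) and in the interaction 0 of 10 (0%). The pooled myelin effect is the mean of Full Tumor and Myelin Alone minus the mean of Tumor without Myelin and Control. At an unadjusted p under 0.05 the block fit had 2 of 10 genes in Full Tumor against Control (9.83% of all genes), 0 in Tumor without Myelin against Control (9.48%), 2 in Myelin Alone against Control (6.04%) and 1 in Full Tumor against Tumor without Myelin (3.88%). It had 2 in Full Tumor against Myelin Alone (7.42%), 2 in the pooled tumor effect (12.7%), 2 in the pooled myelin effect (7.13%) and 1 in the interaction (2.93%). DESeq2, run with group only, called Thbs1 in Full Tumor against Myelin Alone (19 genes in all, 0.142%) and in the pooled tumor effect (174 genes, 1.3%). With group only, edgeR called 0% and 0.0745% of all genes in these comparisons. DESeq2 called 0 of the 10 in Full Tumor against Control (0.321% of all genes), Tumor without Myelin against Control (0.403%), Myelin Alone against Control (0.082%), Full Tumor against Tumor without Myelin (0.0373%), the pooled myelin effect (0.127%) and the interaction (0%). Limma-voom, also with group only, called 0 of the 10 throughout. It called 0.0447% of all genes in the pooled tumor effect and 0% in the other 7 comparisons. The median log2 fold change of the 10 genes in Full Tumor against Control was 0.35 with the block, with 8 of 10 positive, beside 0.01 over all tested genes, of which 50.9% were positive. The median was 0.04 in Tumor without Myelin against Control (7 of 10 positive, 50.5% of all genes), −0.02 in Myelin Alone against Control (5 of 10, 51.9%), 0.25 in Full Tumor against Tumor without Myelin (6 of 10, 50.7%) and 0.43 in Full Tumor against Myelin Alone (6 of 10, 49.0%). It was 0.13 in the pooled tumor effect (7 of 10, 49.7%), −0.01 in the pooled myelin effect (5 of 10, 51.9%) and 0.16 in the interaction (6 of 10, 49.6%).

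**Figure D2:**
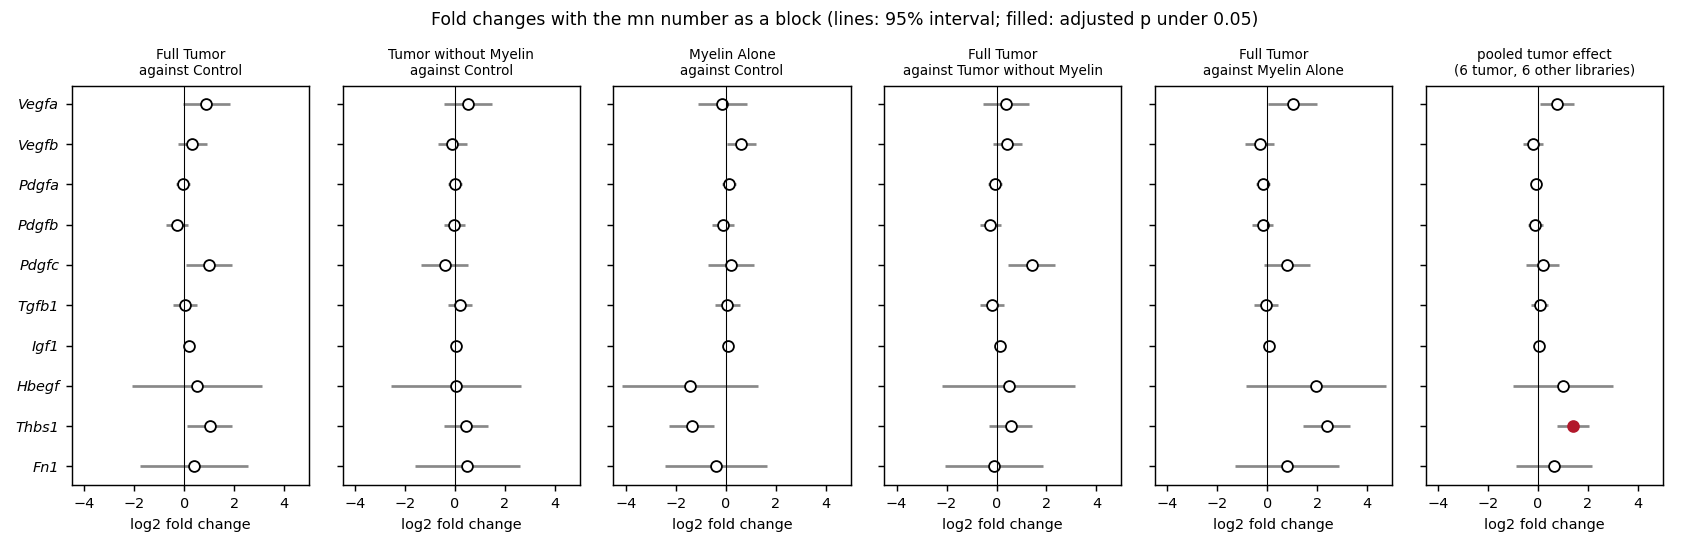
Log2 fold changes (horizontal axis) of the 10 genes (rows) in 6 comparisons with the mn number as a block, lines being 95% intervals and a filled point an edgeR adjusted p under 0.05. The filled point is Thbs1 in the pooled tumor effect, at 1.41, and the intervals of Hbegf and Fn1 are the widest.

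Vegfa (ENSMUSG00000023951, chromosome 17, 46016993 to 46032369, minus strand) encodes the main vessel growth factor. It was measured at 9.72, 10.7 and 1.99 CPM in Full Tumor and at 8.07, 11.6 and 0.668 CPM in Tumor without Myelin, for numbers 957, 958 and 016. It was measured at 2.69, 5.52 and 1.61 CPM in Myelin Alone and at 3.84, 7.19 and 1.23 CPM in Control. The 957 and 958 libraries were higher in both tumor groups than in their Myelin Alone and Control partners, the 016 libraries were low throughout, and all groups overlapped. The pooled tumor effect was 0.76 ± 0.31 with the block (95% interval 0.08 to 1.45) and did not pass (edgeR adjusted p = 0.322). With group only it was 0.96 ± 0.65 (edgeR unadjusted p = 0.167). By number it was 1.43, 0.81 and −0.25. Without 957 the Vegfa effect was 0.37 and without 016 it was 1.14, and neither passed (edgeR adjusted p = 0.733 and 0.0612).

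Vegfb (ENSMUSG00000024962, chromosome 19, 6982473 to 6987651, minus strand), whose product binds VEGF receptor 1 on endothelial cells, was higher with myelin in each same-numbered pair, but did not pass. It was measured at 10.4, 10.3 and 5.77 CPM in Full Tumor and 5.96, 9.83 and 4.37 CPM in Tumor without Myelin. It was measured at 7.75, 16.0 and 9.21 CPM in Myelin Alone and 7.19, 8.95 and 5.10 CPM in Control. Both myelin groups were above their partners of the same number without myelin in every pair, but the groups overlapped. The pooled myelin effect was 0.53 ± 0.18 with the block (unadjusted p = 0.0149, edgeR adjusted p = 0.521). It was positive in 3 of 3 numbers, where 31.2% of tested genes had a single direction. With group only it was 0.51 ± 0.28 (edgeR unadjusted p = 0.0981).

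Pdgfc (ENSMUSG00000028019, chromosome 3, 81036416 to 81214040, plus strand) encodes a PDGF chain that needs proteolytic activation. It stood at 4.33, 7.36 and 1.47 CPM in Full Tumor and 1.23, 2.69 and 0.851 CPM in Tumor without Myelin, and Full Tumor was the higher in every number. It stood at 1.21, 5.13 and 1.44 CPM in Myelin Alone and 1.54, 4.28 and 0.981 CPM in Control. Full Tumor against Tumor without Myelin gave 1.40 ± 0.43 with the block (95% interval 0.46 to 2.35), an unadjusted p of 0.00735 and an edgeR adjusted p of 1.00. With group only it gave 1.46 ± 0.80 (edgeR unadjusted p = 0.0943). By number the difference was 1.73, 1.42 and 0.72. These values rest on 14 to 129 counts per library.

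The other PDGF chains were the more abundant ones. Pdgfa (ENSMUSG00000025856, chromosome 5, 138976014 to 138997370, minus strand), a ligand of PDGF receptor alpha, averaged 83.0 ± 15.1 CPM in Full Tumor, 85.5 ± 6.32 in Tumor without Myelin, 94.5 ± 22.9 in Myelin Alone and 85.4 ± 13.9 in Control (SD, n = 3). With the block, its log2 fold change for Full Tumor against Control was −0.05, with a 95% interval of −0.32 to 0.23, and its widest interval bound among the 5 group comparisons was −0.46, in Full Tumor against Myelin Alone. Its exons share 813 bases with the antisense gene 6330403L08Rik, which had 1107 counts, and the strand setting of the counting is not given in the sources used here.

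Pdgfb (ENSMUSG00000000489, chromosome 15, 79995874 to 80014977, minus strand) encodes the chain that drives the tumors of both models. Its level was 53.1, 88.3 and 34.5 CPM in Full Tumor and 75.3, 105 and 34.7 CPM in Tumor without Myelin, against 49.9, 118 and 38.8 CPM in Myelin Alone and 82.6, 122 and 28.3 CPM in Control. The 016 libraries were below all others and 958 above the other numbers in every group. Full Tumor against Control gave −0.29 (95% interval −0.72 to 0.13) with the block and did not pass (edgeR adjusted p = 0.697). Whether reads of the driver would be counted as Pdgfb is not given in the sources used here.

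Igf1 (ENSMUSG00000020053, chromosome 10, 87858265 to 87937042, plus strand) had the highest level per length of the 10 genes. It was measured at 1360, 1615 and 1247 CPM in Full Tumor and 1337, 1524 and 1038 CPM in Tumor without Myelin. It was measured at 1299, 1674 and 1089 CPM in Myelin Alone and 1361, 1549 and 913 CPM in Control. The 016 library was the lowest and the 958 library the highest in all 4 groups. Full Tumor against Control gave 0.17 with the block, with a 95% interval of −0.03 to 0.36.

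Tgfb1 (ENSMUSG00000002603, chromosome 7, 25687002 to 25705077, plus strand) lay between 6.74 and 14.1 CPM in all 12 libraries. It averaged 8.82 ± 1.92 CPM in Full Tumor, 10.2 ± 3.68 in Tumor without Myelin, 9.28 ± 3.13 in Myelin Alone and 8.70 ± 1.80 in Control (SD, n = 3). Its pooled tumor effect was 0.07 with the block (95% interval −0.27 to 0.41). The Tgfb1 groups therefore differed by less than the spread within each.

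Hbegf (ENSMUSG00000024486, chromosome 18, 36504927 to 36515805, minus strand), a ligand of the EGF receptor, was scarce. It had 22, 23 and 34 counts in Full Tumor, 0, 19 and 37 in Tumor without Myelin, 11, 0 and 11 in Myelin Alone and 23, 10 and 25 in Control. A count of 0 allows up to 3 counts, or 0.138 to 0.176 CPM depending on the library, counting error only. Full Tumor averaged 1.36 ± 0.23 CPM, Myelin Alone 0.397 ± 0.34 and Control 1.00 ± 0.39 (SD, n = 3). All 3 Full Tumor libraries lay above all 3 Myelin Alone libraries, but the log2 fold change with the block had a 95% interval of −0.84 to 4.76.

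Fn1 (ENSMUSG00000026193, chromosome 1, 71585520 to 71653200, minus strand) was counted 1 to 30 times in the libraries of 957 and 958. It had 2, 30 and 125 counts in Full Tumor and 14, 28 and 57 in Tumor without Myelin. It had 8, 6 and 76 counts in Myelin Alone and 19, 1 and 93 in Control. The 016 libraries were the highest of each group. Pericyte and fibroblast markers summed to 17.1 to 31.2 CPM in the 4 libraries of 016, 5.43 to 16.6 in 957 and 0.827 to 22.1 in 958, and their part in the Fn1 level was not tested.

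**Figure D3:**
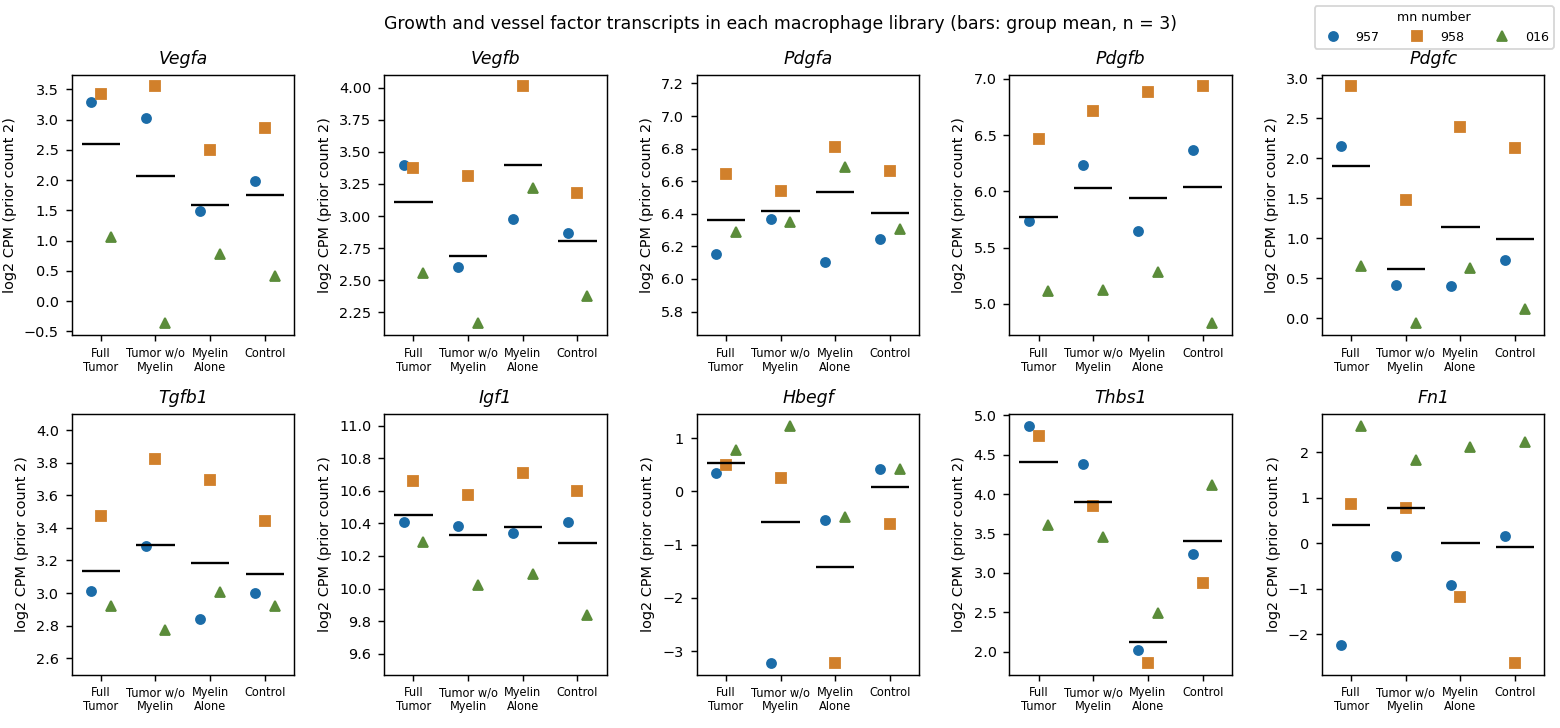
Log2 CPM with a prior count of 2 (vertical axis, with its own range in each panel) of the 10 genes in the 4 groups (horizontal axis), with 1 point per library, its shape and colour giving the mn number, and bars for the mean of 3 libraries. The 016 points lie lowest in each group for Vegfa, Pdgfb and Igf1 and highest for Fn1.

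Levels can be set against each other only per length of exon. In Full Tumor, Igf1 stood at 142 ± 19.1 CPM per kilobase, Pdgfa at 26.6 ± 4.83, Pdgfb at 14.1 ± 6.57, Vegfb at 5.49 ± 1.65 and Thbs1 at 3.71 ± 1.51 (SD, n = 3). Tgfb1 stood at 1.75 ± 0.38 CPM per kilobase, Vegfa at 1.74 ± 1.11, Pdgfc at 0.862 ± 0.58, Hbegf at 0.281 ± 0.05 and Fn1 at 0.220 ± 0.26. In Control, Igf1 stood at 129 ± 33.0 CPM per kilobase, Pdgfa at 27.4 ± 4.46, Pdgfb at 18.7 ± 11.3, Vegfb at 4.41 ± 1.20 and Thbs1 at 1.85 ± 0.86. The level of Igf1 per kilobase was above 96.7% of the tested protein-coding genes in Full Tumor and above 96.4% in Control. Among the neighbours of the Full Tumor order, the ranges of 1 SD overlapped for Vegfb and Thbs1, Tgfb1 and Vegfa, Vegfa and Pdgfc, Pdgfc and Hbegf, and Hbegf and Fn1.

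The mn number set most of these genes apart more than the group did. Tested across the 3 numbers in the block fit, a test added after the values were seen, 8 of 10 genes had an edgeR adjusted p under 0.05, where 34.9% of all tested genes did. The exceptions were Hbegf (edgeR adjusted p = 0.619) and Thbs1 (0.774). For Vegfa, the 4 libraries of 016 lay between 0.668 and 1.99 CPM and the 8 others between 2.69 and 11.6 CPM. For Igf1 they lay between 913 and 1247 CPM against 1299 to 1674 CPM, and for Pdgfb between 28.3 and 38.8 CPM against 49.9 to 122 CPM. For Fn1 they lay above the others, at 3.46 to 5.91 CPM against 0.0549 to 1.71 CPM. The number took a larger share of the variance of log2 CPM than the group in 8 of 10 genes, with 78.4% against 9.43% for Vegfa and 89.8% against 2.25% for Pdgfb. Thbs1 stood the other way, with 77.9% for the group and 1.72% for the number.

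**Figure D4:**
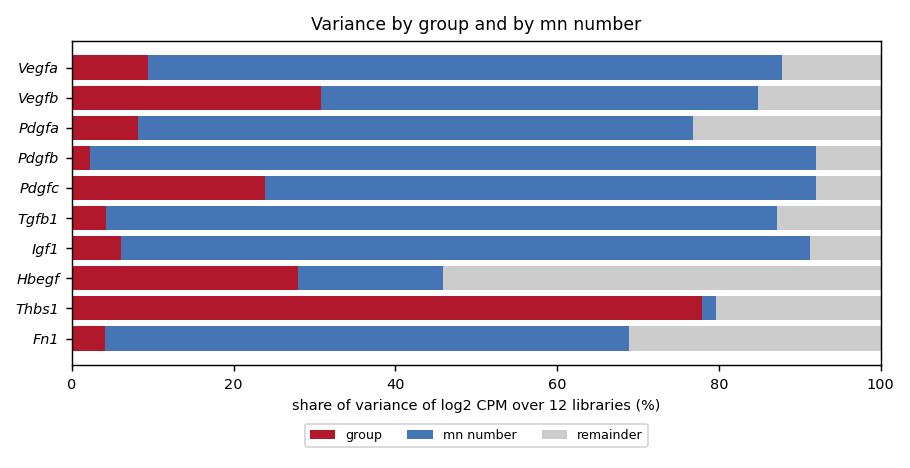
Share of the variance of log2 CPM over the 12 libraries (horizontal axis, percent) that goes with the group (red), the mn number (blue) and neither (grey), for each of the 10 genes (rows). Thbs1 has 77.9% with the group, against 2.25% to 30.8% for the other genes.

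Around these factors, other genes of the same pathways were counted in the pooled tumor effect with the block, where 1.63% of all tested genes were called higher and 0.626% lower. These lists, here and in the paragraphs below, were chosen with earlier results of these data known. Their counts beside those shares are therefore a description only. Of 5 tested further ligands of the same families 0 passed in either direction. Of 11 other secreted growth and vessel factors 2 were higher and 0 lower, with a list median of 0.20 beside −0.00 over all genes. They were Grn, the growth factor progranulin, which rose by 0.31 ± 0.07 (edgeR adjusted p = 0.0356), and Spp1, osteopontin, which rose by 0.28 ± 0.06 (edgeR adjusted p = 0.0490). Grn averaged 2778 ± 80.0 CPM in Full Tumor, 2500 ± 143 in Tumor without Myelin, 2384 ± 389 in Myelin Alone and 1919 ± 135 in Control (SD, n = 3).

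Of 24 receptors of the factors, 1 was higher and 0 lower (list median 0.14). It was Itgav, the integrin alpha v subunit that takes part in fibronectin binding and in activation of latent TGF-beta. Itgav stood at 216, 208 and 179 CPM in Full Tumor and 213, 264 and 215 CPM in Tumor without Myelin, against 114, 164 and 111 CPM in Myelin Alone and 160, 169 and 96.8 CPM in Control. Every tumor library lay above every library without tumor, and the gene rose by 0.69 ± 0.10 (edgeR adjusted p = 0.00531). The receptors of Thbs1 were abundant and were not called. Cd36 averaged 2625 ± 1170 CPM in Full Tumor and 2348 ± 864 in Control, and Cd47 440 ± 106 CPM in Full Tumor and 387 ± 44.5 in Control (SD, n = 3).

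Of 18 activators, carriers and inhibitors, 1 was higher and 0 lower (list median 0.05). It was Lgals3bp, a secreted glycoprotein that binds galectins, with a log2 fold change of 1.04 ± 0.22 (edgeR adjusted p = 0.0364). Lgals3bp was at 1193, 1314 and 418 CPM in Full Tumor and 1068, 1216 and 430 CPM in Tumor without Myelin, against 450, 423 and 411 CPM in Myelin Alone and 410, 378 and 421 CPM in Control. The higher level lay in 957 and 958, and the 016 libraries of the tumor groups were close to those without tumor. Of 19 hypoxia targets 0 were higher and 1 lower (list median −0.08). The lower one was Ndrg1, a stress-responsive gene, which fell by 0.66 ± 0.10 on the log2 scale (edgeR adjusted p = 0.00512).

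Of 20 TGF-beta targets, 4 were higher and 0 lower (list median 0.18). Tgfbi, a matrix protein, rose by 0.59 ± 0.09 (edgeR adjusted p = 0.00566). It averaged 421 ± 3.93 CPM in Full Tumor and 461 ± 43.5 in Tumor without Myelin, against 304 ± 30.9 in Myelin Alone and 283 ± 53.9 in Control (SD, n = 3). Pmepa1, a feedback inhibitor of the pathway, rose by 1.44 ± 0.33, and Id1 and Id3, inhibitors of DNA binding that BMP ligands also induce, by 0.49 ± 0.11 and 0.29 ± 0.06 (edgeR adjusted p between 0.0404 and 0.0490). The level of Tgfb1 itself did not pass, as given above.

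Of 19 genes of the fibronectin matrix and its partners, 4 were higher and 1 lower (list median 0.49). Tgm2, the transglutaminase that crosslinks fibronectin, rose in the block fit by 1.02 ± 0.08 (edgeR adjusted p = 0.000108) and also passed with group only (edgeR adjusted p = 0.0389). Mmp14, a membrane-bound collagenase, rose by 1.48 ± 0.25, Plod1, a collagen lysyl hydroxylase, by 0.49 ± 0.09, and Sdc3, the heparan sulfate carrier syndecan 3, by 0.77 ± 0.17. Mmp12, macrophage elastase, fell by 0.53 ± 0.07 on the log2 scale (edgeR adjusted p between 0.00218 and 0.0367 over Mmp12, Mmp14, Plod1 and Sdc3). Mmp14 stood at 36.0, 55.1 and 6.23 CPM in Full Tumor against 5.00, 6.53 and 3.82 CPM in Control, so most of its difference lay in 957 and 958. With group only, Tgm2 was the 1 gene of these lists that passed, apart from a microglia marker, Fcrls (2.16 ± 0.27, edgeR adjusted p = 0.0270).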

How the data were processed

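RNA of 12 libraries was reverse transcribed from oligo-dT with template switching, per the labels. The authors deposited unnormalized whole-number counts for each gene, on mm10 per the submitters' processing notes. Not given in the sources used here are the aligner, the counting program and whether strand was used. The 10 genes and the lists of related genes were chosen with earlier results of these data known.

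CPM, on library totals scaled by TMM factors (0.965 to 1.06), and every test came from these deposited counts. Tests were run with edgeR's quasi-likelihood method (edgeR 4.0.16, R 4.3.3; limma 3.58.1 and DESeq2 1.42.0 as alternatives) with filterByExpr on all 12 libraries and group as the only term. Two-sided p-values were adjusted with the Benjamini-Hochberg method over 13414 genes, with a threshold of 0.05. A standard error here is the size of the log2 fold change divided by the root of its F statistic. The mn number pairs the libraries: deviations from group means correlated above 0.1 across genes in 18 of 18 same-numbered pairs (0.120 to 0.631). Among pairs that differed in number and group, 4 of 36 were above 0.1 (−0.477 to 0.256), so the ranges overlapped. Most single-gene values and intervals are therefore given with the number as a block, whether or not it changes a call. Adding the number lowered the biological coefficient of variation to 0.266, against 0.414 without it. Libraries of a group differed beyond sampling noise. The fits were also run on simulated data, but the outcome is not given and no result here draws on it. Lengths are union exons of GENCODE on GRCm38. Whether reads of a gene and its antisense partner were told apart is not known, since the strand setting is not given.

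From each list, up to 4 genes with the smallest adjusted p among those past 0.05 were to be named, plus the 2 genes most like each gene that passed. Sdc3, Cd36 and Cd47 fall outside that rule and were chosen after their values were seen. Alternatives were other scalings, no low-count filter, DESeq2, limma-voom, the block, and leaving out libraries or numbers. Intervals and floors cover counting error and the spread between libraries only.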

Additional observations from a re-analysis of the deposited data

Results flagged for a closer look

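The point values of the myelin difference of Thbs1 had opposite signs with and without tumor in all 3 numbers, though neither difference passed the test. Full Tumor minus Tumor without Myelin was 0.48, 0.88 and 0.15 on the log2 scale for numbers 957, 958 and 016, while Myelin Alone minus Control was −1.22, −1.004 and −1.61. With the block, the first had a 95% interval of −0.29 to 1.43, which includes 0 (edgeR adjusted p = 1.00), and the second an edgeR adjusted p of 0.601. The difference between them was 1.93 ± 0.59 (95% interval 0.64 to 3.21) with group only, with an unadjusted p of 0.00679 and an edgeR adjusted p of 1.00 over all tested genes. A gene was flagged here if its 2 myelin differences had opposite signs in all 3 numbers. The same sign of the interaction in 3 of 3 numbers follows from that rule and adds no support. Over all tested genes, 21.7% had a single sign in either direction.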

How the results depend on the processing

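Over 38 settings, the log2 fold changes of the 10 genes in 8 comparisons gave 3040 values, of which 3022 stayed on the same side of the threshold, 18 passed it where the fit with group only did not, and 0 called values changed sign. All 18 belonged to Thbs1; 268 values that were not called changed sign. Over all genes, group only called 10 in the pooled tumor effect and 0 in every other comparison. Among the 10 genes the count was 0 with group only in all 8 comparisons and became 1, Thbs1, in the following. In the pooled tumor effect it was 1 with the replicate block, with library totals alone or no low-count filter together with the block, and under DESeq2 with group only. These settings called 302, 300, 414 and 174 genes in all, in that order. In Full Tumor against Myelin Alone the count among the 10 was 1 under DESeq2 and with no low-count filter together with the block. There, 19 and 89 genes were called in all. Leaving out 1 library or 1 number at a time gave 0 to 1 called genes in Full Tumor against Control, in Full Tumor against Myelin Alone and in the pooled tumor effect, and 0 in the other comparisons. Over all genes, these fits called 0 to 183 in Full Tumor against Control, 0 to 120 in Full Tumor against Myelin Alone and 0 to 293 in the pooled tumor effect. Without 016 and with the block the totals were 183, 120 and 259. Thbs1 in Full Tumor against Control passed with the block only without the 4 libraries of 016, at 1.76, against 0.54 to 1.53 in the other such fits. Over single libraries and numbers left out, the pooled Thbs1 effect with the block lay between 1.08 and 1.99. The block changed no other call among the 10 genes. RLE size factors, library totals alone, limma-voom and no low-count filter gave 0 with group only. In the pooled tumor effect they called 7, 2, 6 and 48 genes in all, in that order. In the pooled tumor effect, adding the block hardly altered the edgeR p of Thbs1 before adjustment, at 0.000540 against 0.000499. Genes with an unadjusted p under 0.05 made up 12.7% of all tested genes in the block fit, against 5.78% without the block. The change of the Thbs1 call there came from the adjustment over all genes, as given above. What lay behind the other changes was not tested. Hbegf had 0 to 37 counts per library, Fn1 1 to 125 and Pdgfc 14 to 129.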
